A study of Homo sapiens with 9 samples.

Results

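The BCL2 family decides whether the outer membrane of the mitochondrion is opened during apoptosis. The genes described here were chosen by symbol as members not driven mainly by p53: the survival genes BCL2, BCL2L1 and MCL1, the effector BAK1, and the BH3-only genes BCL2L11, BID, BIK, BMF, BAD and HRK. They are 10 of the 31558 genes in the count table. All 10 had counts in each of the 9 samples, and all 10 passed edgeR's filter on low counts. The cells were HCT116, a human colorectal cancer line. The series describes the CRLM1-OE line as stable and the control lines as made in parallel, while the paper calls the sequenced cells transfected. Its methods name a lentiviral pTSB-GFP-puro vector and puromycin selection for CRLM1 expression, but do not tie them to these 9 samples. The plasmid carried the lncRNA CRLM1 in the CRLM1-OE group, no insert in the Ctrl group and the antisense sequence of CRLM1 in the Anti group, with 3 biological replicates each. The comparisons ask how the transcriptome differed when CRLM1 was overexpressed, against either control.

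Survival proteins of this family hold the effectors BAK and BAX in check at the mitochondrial membrane. BH3-only proteins bind the survival proteins or the effectors and thereby free or activate the effectors, which form pores and release cytochrome c. Much of this control acts on the proteins, by phosphorylation, cleavage or degradation, and is not seen in RNA.

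Sequences before the annotated start sites of the family genes were searched for motifs, since BCL2L11 is known as a target of FOXO factors. Windows of 250 bases came from RefSeq on GRCh38.p14, and 8 of the 10 genes had them (survival, effector and BH3-only), with 15 windows in all. Where a gene has several starts, a window can lie in an exon of a longer transcript: 10 of the 15 held exonic bases, and 2, of BCL2 and BCL2L1, were wholly exonic. BIK and MCL1 were not matched. The sequences shown are those of BCL2L11, with the match to the FOXO motif in capitals, and of BMF and HRK, the BH3-only genes that were higher in CRLM1-OE than in both controls. They are written 5′ to 3′ on the strand of the gene, at chr2:111120664-111120913 (plus strand), chr15:40108893-40109129 (minus strand, 237 bases, with 13 exonic bases left out) and chr12:116881442-116881691 (minus strand).
BCL2L11: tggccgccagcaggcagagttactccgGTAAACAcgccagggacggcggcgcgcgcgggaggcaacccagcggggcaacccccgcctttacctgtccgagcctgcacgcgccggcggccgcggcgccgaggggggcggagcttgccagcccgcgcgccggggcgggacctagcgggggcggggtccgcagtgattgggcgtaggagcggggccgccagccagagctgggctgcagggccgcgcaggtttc
BMF: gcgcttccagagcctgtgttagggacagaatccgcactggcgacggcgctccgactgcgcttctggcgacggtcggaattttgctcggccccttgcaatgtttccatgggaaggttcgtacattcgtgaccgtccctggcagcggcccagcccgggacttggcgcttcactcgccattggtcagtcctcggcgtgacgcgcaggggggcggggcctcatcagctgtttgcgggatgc
HRK: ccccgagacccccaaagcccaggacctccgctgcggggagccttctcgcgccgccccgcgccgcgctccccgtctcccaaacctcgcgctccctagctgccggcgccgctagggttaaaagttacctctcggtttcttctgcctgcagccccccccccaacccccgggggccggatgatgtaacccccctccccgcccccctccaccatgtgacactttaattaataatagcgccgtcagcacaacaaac
The FOXO motif TGTTTAC, searched on both strands, was found in 1 of the 15 windows, as its reverse complement in BCL2L11, starting 223 bases before the start site. It occurred in 2.98% of 35116 windows of the same length over all genes. The E2F motif (TTTCGCGC or TTTGGCGC, 0.968% of all windows) and the AP-1 motif (TGACTCA, 4.2% of all windows) were found in 0 of the 15. A match is a match of letters only, and no binding was measured.

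The smallest library held 33302292 counts and the largest 44514692, and the group medians were close (CRLM1-OE 37869366, Ctrl 36292725, Anti 37546884). CRLM1, listed as RP4-710M16.2, had 32751 to 38704 counts in CRLM1-OE, 0 in each Ctrl sample and 1540 to 1951 in Anti. The epithelial markers EPCAM, KRT8, KRT18, KRT19 and CDH1 were abundant, and the summed counts of the 7 epithelial markers were 319436 to 398984 in CRLM1-OE, in Ctrl 375665 to 472295 and in Anti 326616 to 373827. VIL1 had 1 to 10 counts and CEACAM5 0 to 5, and KRT18 was lower in CRLM1-OE than in Ctrl by 1.99-fold (adjusted p = 1e-300). Of 6 markers of other cell types, 5 were in the table and summed to 620 to 661 counts in CRLM1-OE, in Ctrl to 307 to 421 and in Anti to 379 to 386. Nearly all of this was COL1A1, which was higher in CRLM1-OE than in Ctrl (log2 fold change 0.75, adjusted p = 1e-22), while PTPRC, PECAM1, COL1A2 and ALB had 0 to 6 counts per sample. The part of these markers in the differences below was not tested.

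CRLM1-OE cells differed from Ctrl in 9 of the 10 genes, mostly by less than 2-fold. BMF, HRK, BCL2, BAK1 and MCL1 were higher, and BIK, BID, BAD and BCL2L1 were lower, at an adjusted p of at most 0.05. Only BMF also passed the fold change of 2 that the study required of a differentially expressed gene (DEG). Against Anti, BMF, HRK and BAK1 were higher in CRLM1-OE, BIK, BID, BCL2L11, BCL2L1 and MCL1 were lower, and BMF was again the only DEG. Between the controls, BCL2, MCL1, BCL2L11, BIK and BCL2L1 were higher in Anti than in Ctrl, BAD was lower, and 0 of the 10 were DEGs. Each control serves in 2 of these comparisons, and CRLM1-OE in 2, so the comparisons are not independent.

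These counts are read against all genes tested. In CRLM1-OE against Ctrl, 15% of 29846 genes were higher and 16.8% lower, and 3.41% were DEGs. Among the 15971 genes with enough counts for edgeR's filterByExpr, 26.8% were higher and 30.8% lower, against 5 and 4 of the 10 family genes. In CRLM1-OE against Anti, 17.1% of 30183 genes were higher, 18.5% were lower and 5.65% were DEGs, or 30.5% higher and 33.7% lower among 16137 well-counted genes, against 3 and 5 of the 10. In Anti against Ctrl, 11.5% of 29714 genes were higher, 12.2% were lower and 1.06% were DEGs, or 21% higher and 22.7% lower among 15777, against 5 and 1 of the 10. The median log2 fold change of the 10 genes was 0.08, -0.29 and 0.17 in the 3 comparisons, where that of all genes tested was 0.02, -0.02 and 0.00. The share of higher calls depended on scaling: without TMM factors it rose from 47.1% to 69.3% of all calls in CRLM1-OE against Ctrl and from 48.4% to 73.1% in Anti against Ctrl. In bulk RNA, fewer cells expressing a gene and less RNA per cell cannot be told apart. With 3 replicates a group, exact permutation of the labels gives a two-sided p of 0.1 at best, so the p values given are those of the fit across all genes.

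**Figure D1:**
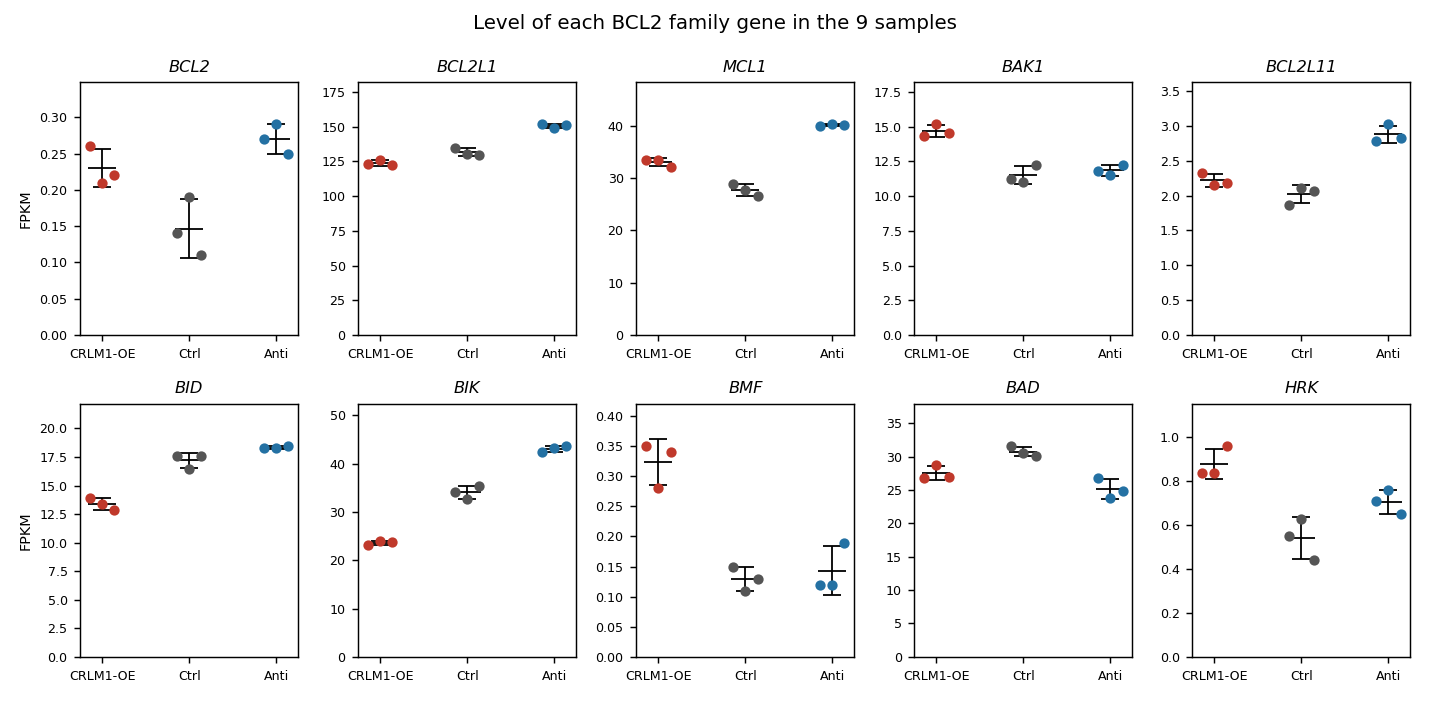
FPKM (fragments scaled for exon length and for mapped fragments, vertical axes from 0) of the 10 genes in the 9 samples, with 1 point per sample and black lines for the group mean ± SD (n = 3). BMF sits at 0.28 to 0.35 in CRLM1-OE, above all control samples, and BIK sits at 23.15 to 24.01, below them.

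The levels per length spanned a wide range and were dominated by BCL2L1. It held 51% to 51.8% of the summed FPKM of the 10 genes in every sample. In Ctrl the order was BCL2L1, BIK, BAD, MCL1, BID, BAK1, BCL2L11, HRK, BCL2 and BMF. In CRLM1-OE it was BCL2L1, MCL1, BAD, BIK, BAK1, BID, BCL2L11, HRK, BMF and BCL2, so that BIK came below MCL1 and BAD, BAK1 above BID, and BMF above BCL2. In Anti it was BCL2L1, BIK, MCL1, BAD, BID, BAK1, BCL2L11, HRK, BCL2 and BMF. Neighbours in these orders had sample ranges that did not overlap, except BCL2 and BMF in Ctrl.

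Of the survival genes, BCL2L1 (chr20:31664452-31723989, minus strand) encodes BCL-xL and, by splicing, the shorter BCL-xS, which per-gene counts do not separate. Its FPKM was 123.43, 125.89 and 122.29 in CRLM1-OE, 134.87, 130.42 and 129.75 in Ctrl, and 151.64, 149.29 and 151.13 in Anti. The 3 groups did not overlap, with CRLM1-OE lowest and Anti highest. On the scale of the test, BCL2L1 was 1.15-fold lower in CRLM1-OE than in Ctrl (log2 fold change -0.20, SE 0.022, adjusted p = 1.4e-18) and 1.26-fold lower than in Anti (-0.33, SE 0.019, adjusted p = 1.8e-62). It was 1.07-fold higher in Anti than in Ctrl (0.10, SE 0.022, adjusted p = 1.9e-05). Scaled by total counts, its log2 difference from Ctrl shrank to -0.0618 (adjusted p = 0.019) in CRLM1-OE and grew to 0.208 in Anti.

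MCL1 (chr1:150560895-150579738, minus strand) encodes a survival protein known for its fast turnover. Its FPKM was 33.4, 33.51 and 32.17 in CRLM1-OE, 28.8, 27.74 and 26.6 in Ctrl, and 39.91, 40.24 and 40.1 in Anti. CRLM1-OE lay between the controls without overlap. MCL1 was 1.10-fold higher in CRLM1-OE than in Ctrl (log2 fold change 0.14, SE 0.028, adjusted p = 7.8e-06), 1.25-fold lower than in Anti (-0.33, SE 0.025, adjusted p = 2.8e-38), and 1.36-fold higher in Anti than in Ctrl (0.44, SE 0.027, adjusted p = 8.7e-56). The direction of the CRLM1-OE difference thus depended on the control. Scaled by total counts, the difference from Ctrl was 0.279 on the log2 scale.

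BCL2 (chr18:63123346-63320128, minus strand), the founding member of the family, was barely expressed. It had 94, 61 and 75 counts in CRLM1-OE, 53, 58 and 32 in Ctrl, and 95, 93 and 75 in Anti, and its mean FPKM was 0.23 ± 0.0265, 0.147 ± 0.0404 and 0.27 ± 0.02 (SD, n = 3). After scaling for depth, the Ctrl samples lay below both other groups, which overlapped. BCL2 was 1.49-fold higher in CRLM1-OE than in Ctrl (log2 fold change 0.57, SE 0.19, adjusted p = 0.011) and 1.75-fold higher in Anti than in Ctrl (0.81, SE 0.19, adjusted p = 0.00012). Against Anti, the CRLM1-OE value was -0.26 (95% interval -0.58 to 0.06, adjusted p = 0.25). The call against Ctrl was lost in DESeq2 (adjusted p = 0.064), in limma on FPKM (0.16 and 0.085), without CRLM1-OE replicate 1 (0.074) and without Ctrl replicate 3 (0.11). The call between the controls was lost in limma on log2(FPKM + 0.1) (adjusted p = 0.074).

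BAK1 (chr6:33572547-33580293, minus strand) encodes the pore-forming effector BAK. Its FPKM was 14.33, 15.15 and 14.53 in CRLM1-OE, 11.23, 11.03 and 12.24 in Ctrl, and 11.78, 11.49 and 12.26 in Anti. The CRLM1-OE samples lay above all 6 control samples, and the controls overlapped. BAK1 was 1.18-fold higher than in Ctrl (log2 fold change 0.24, SE 0.048, adjusted p = 4.5e-06) and 1.2-fold higher than in Anti (0.26, SE 0.047, adjusted p = 1.3e-07). Between the controls the value was -0.05 (95% interval -0.15 to 0.05, adjusted p = 0.58). Scaled by total counts, the difference from Ctrl was 0.378.

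Among the BH3-only genes, BMF (chr15:40087890-40108892, minus strand) had the largest fold change and few reads. Its protein is known to be held at the cytoskeleton through a dynein light chain. BMF had 82, 52 and 73 counts in CRLM1-OE, 36, 23 and 26 in Ctrl, and 26, 25 and 38 in Anti. Every CRLM1-OE sample lay above every control sample, and the controls overlapped. Its CRLM1-OE mean of 0.323 ± 0.0379 FPKM compared with 0.13 ± 0.02 in Ctrl and 0.143 ± 0.0404 in Anti (SD, n = 3). BMF was 2.25-fold higher than in Ctrl (log2 fold change 1.17, 95% interval 0.74 to 1.60, adjusted p = 7.1e-07) and 2.21-fold higher than in Anti (1.14, 0.71 to 1.57, adjusted p = 7.8e-07). Both intervals include 1, a 2-fold change. Between the controls the value was 0.01 (95% interval -0.52 to 0.54, adjusted p = 0.99). On the log2(FPKM + 1) scale, which understates changes of low genes, the 2 differences were 0.228 and 0.211.

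HRK (chr12:116856144-116881441, minus strand), best known from dying neurons, was also low and higher in CRLM1-OE. It had 233, 184 and 244 counts in CRLM1-OE, 160, 148 and 100 in Ctrl, and 188, 187 and 151 in Anti. After scaling for depth, the CRLM1-OE samples lay above both controls, and the controls overlapped each other. HRK was 1.5-fold higher than in Ctrl (log2 fold change 0.59, SE 0.12, adjusted p = 3.8e-06) and 1.2-fold higher than in Anti (0.27, SE 0.11, adjusted p = 0.045). The second call was lost in 7 of 14 alternatives, with adjusted p up to 0.23, among them without CRLM1-OE replicate 3 (0.23), without Anti replicate 1 (0.09) and without Anti replicate 3 (0.2). Between the controls the value was 0.30 (95% interval 0.06 to 0.55, adjusted p = 0.066), and it passed in 6 of 14 alternatives, without Ctrl replicate 2 (0.014) and without Anti replicate 3 (0.044) among them.

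BIK (chr22:43110750-43129712, plus strand) encodes a BH3-only protein found mainly at the endoplasmic reticulum and was the family gene with the largest decrease in CRLM1-OE. Its FPKM was 23.15, 24.01 and 23.78 in CRLM1-OE, 34.16, 32.75 and 35.45 in Ctrl, and 42.38, 43.35 and 43.63 in Anti. The 3 groups were well apart, with CRLM1-OE lowest. BIK was 1.56-fold lower than in Ctrl (log2 fold change -0.64, SE 0.049, adjusted p = 7.2e-38) and 1.88-fold lower than in Anti (-0.91, SE 0.046, adjusted p = 2.1e-86). It was 1.19-fold higher in Anti than in Ctrl (0.25, SE 0.043, adjusted p = 1.3e-07). All 14 alternatives kept these 3 calls and their directions.

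BID (chr22:17734138-17774770, minus strand), which is cleaved downstream of death receptors and so links them to the mitochondrion, was also lower. Its FPKM was 13.88, 13.37 and 12.83 in CRLM1-OE, 17.59, 16.41 and 17.59 in Ctrl, and 18.24, 18.3 and 18.44 in Anti. CRLM1-OE lay below every control sample. BID was 1.39-fold lower than in Ctrl (log2 fold change -0.48, SE 0.041, adjusted p = 2.1e-30) and 1.41-fold lower than in Anti (-0.50, SE 0.039, adjusted p = 3.2e-36), and both calls held in all 14 alternatives. Between the controls the value was -0.00 (95% interval -0.07 to 0.07, adjusted p = 1) and the groups overlapped on the TMM scale, though scaling by total counts gave 0.104 (adjusted p = 0.026).

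BCL2L11 (chr2:111119378-111168444, plus strand) encodes BIM, which binds all survival proteins of the family. Its FPKM was 2.33, 2.15 and 2.18 in CRLM1-OE, 1.87, 2.11 and 2.07 in Ctrl, and 2.79, 3.02 and 2.82 in Anti. The Anti samples were the highest, and CRLM1-OE and Ctrl overlapped after TMM scaling. BCL2L11 was 1.34-fold lower in CRLM1-OE than in Anti (log2 fold change -0.42, SE 0.064, adjusted p = 3.1e-10) and 1.35-fold higher in Anti than in Ctrl (0.43, SE 0.066, adjusted p = 1.4e-09). Against Ctrl, the CRLM1-OE value was 0.03 (95% interval -0.10 to 0.17, adjusted p = 0.77), and total counts gave 0.173 (adjusted p = 0.04).

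BAD (chr11:64269830-64284704, minus strand) encodes a BH3-only protein that survival kinases such as AKT inactivate by phosphorylation. Its FPKM was 26.87, 28.71 and 26.97 in CRLM1-OE, 31.57, 30.55 and 30.17 in Ctrl, and 26.83, 23.8 and 24.87 in Anti. Ctrl lay above both other groups. BAD was 1.21-fold lower in CRLM1-OE than in Ctrl (log2 fold change -0.28, SE 0.042, adjusted p = 4.6e-10) and 1.30-fold lower in Anti than in Ctrl (-0.38, SE 0.043, adjusted p = 2e-17). Against Anti, the CRLM1-OE value was 0.08 (95% interval -0.01 to 0.16, adjusted p = 0.16). It passed with total counts (0.139, adjusted p = 0.004) and without Anti replicate 1 (0.124, adjusted p = 0.035), and total counts reduced the difference of CRLM1-OE from Ctrl to -0.137.

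**Figure D2:**
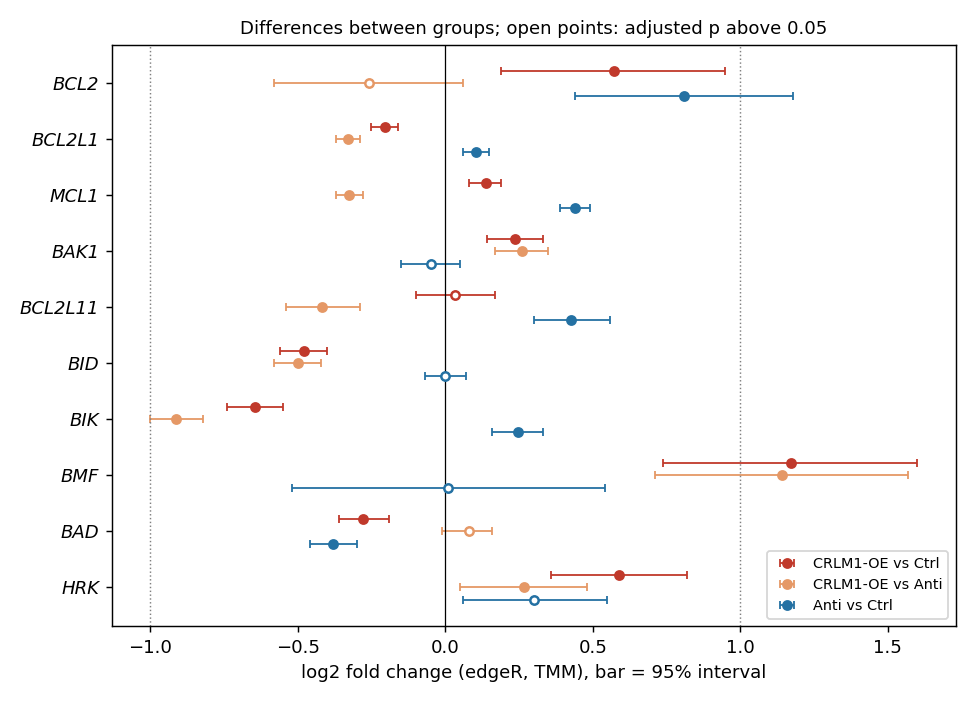
Log2 fold changes of the 10 genes (horizontal axis, edgeR with TMM factors) in the 3 comparisons, with 95% intervals as bars, open points for adjusted p above 0.05 and dotted lines at a 2-fold change. BMF at 1.17 and 1.14 lies beyond the dotted line against both controls, and BIK at -0.91 comes close to it against Anti.

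Summed by role as FPKM, the survival genes and the BH3-only genes differed between groups in unlike ways. In CRLM1-OE the survival genes summed to 157 ± 2.47 FPKM, in Ctrl to 160 ± 3.82 and in Anti to 191 ± 1.07 (SD, n = 3), so that CRLM1-OE and Ctrl overlapped and Anti was higher. The 6 BH3-only genes summed to 67.9 ± 1.24, 84.8 ± 1.91 and 90.3 ± 0.889, with CRLM1-OE below all control samples. FPKM carries no TMM factors, so the overlap of CRLM1-OE and Ctrl in the survival sum is shown for that scale only. With TMM factors, BCL2L1, the largest part of that sum, was lower in CRLM1-OE than in Ctrl (log2 fold change -0.20). MCL1 was higher (0.14). The sums were not formed with TMM factors. The ratio of survival to BH3-only FPKM was 2.33, 2.30 and 2.31 in CRLM1-OE, 1.91, 1.92 and 1.82 in Ctrl, and 2.11, 2.12 and 2.11 in Anti. CRLM1-OE had the highest ratios and Ctrl the lowest, without overlap. This order is shown only for the genes summed, which leave out the p53-driven family genes BBC3 and PMAIP1. BBC3 averaged 53 FPKM with CRLM1 overexpressed, against 53.85 for Ctrl and 59.41 for Anti. PMAIP1 averaged 49.13, 46.68 and 54.69. Each of these means exceeds that of any of the 6 genes in the same group, so the ratios do not describe all BH3-only genes. The top place of CRLM1-OE depends on leaving BBC3 and PMAIP1 out. If their FPKM is added to the BH3-only sums, the ratios of CRLM1-OE no longer lie above those of Anti, and the groups overlap. Ctrl stays lowest. The survival and BH3-only sums are carried by BCL2L1, MCL1, BIK, BAD and BID and contain little of BMF, HRK or BCL2. They are given as a description with no test, and say nothing of protein amounts.

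**Figure D3:**
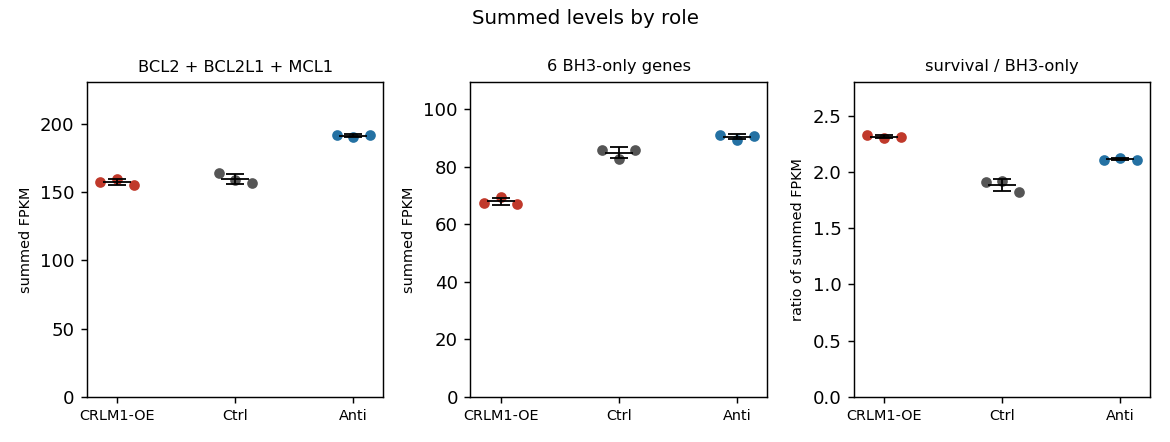
Summed FPKM of the survival genes, of the 6 BH3-only genes and the ratio of the sums (vertical axes from 0) in each sample, with the group mean ± SD (n = 3). The BH3-only sum is 67.06 to 69.36 in CRLM1-OE and 82.56 or more in the controls.

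Some of the 10 genes share exon bases with genes on the opposite strand, and the sources used here do not say whether counting used strand. The overlaps come from a later GENCODE release than the one the authors counted on, and exons may differ between them. BCL2L1 shares 1735 bases, or 41.3% of its merged exon length, with the lncRNA ABALON, which had 555 to 806 counts per sample against at least 13672 for BCL2L1. BCL2L11 shares 727 bases (10.8%) with MIR4435-2HG, a lncRNA with 1559 to 3552 counts, more than BCL2L11 itself. MIR4435-2HG was higher in CRLM1-OE than in Ctrl (log2 fold change 0.34, adjusted p = 2.5e-21) and than in Anti (0.89, adjusted p = 1.3e-142), where BCL2L11 was lower. BAD shares 404 bases (23.7%) with GPR137, which had 172 to 251 counts and passed in none of the 3 comparisons (lowest adjusted p = 0.17). The values of BCL2L1, BCL2L11 and BAD are uncertain to that extent.

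The other genes of the pathway moved in both directions. The counts below stand beside 26.8% higher and 30.8% lower among all well-counted genes against Ctrl, and 30.5% and 33.7% against Anti. These shares cover genes kept by filterByExpr, while the lists also count genes that it drops. It kept 5 of the 8 other BCL2 relatives, 5 of the 6 inhibitor of apoptosis genes and 14 of the 15 regulators. The p53-driven family genes BBC3, PMAIP1 and BAX were all lower in CRLM1-OE than in Anti (3 of 3), and 2 of 3, BBC3 and BAX, were lower than in Ctrl, with log2 fold changes from -0.21 (BBC3 against Anti) to -0.11 (BAX against Anti). Scaled by total counts, 0 of 3 were lower and 1 higher than in Ctrl, with BBC3 at 0.003 and BAX at 0.0114, and 2 of 3 were lower than in Anti. Of the 8 other BCL2 relatives, 1 was higher and 3 were lower in either comparison. BOK, a relative of the effectors, fell to 8.04 ± 0.0153 FPKM from 12.1 ± 0.401 in Ctrl and 16.6 ± 0.652 in Anti (SD, n = 3), with log2 fold changes of -0.71 (adjusted p = 1.1e-44) and -1.09 (adjusted p = 8.5e-124). Of the 8 apoptosome and mitochondrial release genes, 2 were higher and 5 lower than in Ctrl, and 3 were higher and 4 lower than in Anti. APAF1, the scaffold of the apoptosome, was the one that changed at least 1.5-fold, at 0.64 (adjusted p = 7.9e-13) against Ctrl and 0.41 (adjusted p = 1.9e-06) against Anti.

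The 6 inhibitor of apoptosis genes had 1 higher and 3 lower against Ctrl, and 1 higher and 4 lower against Anti. BIRC3, which encodes a ubiquitin ligase of the TNF receptor complex, fell from 11.1 ± 0.266 FPKM in Ctrl and 13.9 ± 0.16 in Anti to 5.78 ± 0.264 in CRLM1-OE (SD, n = 3), with log2 fold changes of -1.06 (adjusted p = 1.3e-178) and -1.31 (adjusted p = 1e-300). In the death receptor arm of 10 genes, 3 were higher and 4 lower than in Ctrl, while 0 were higher and 9 lower than in Anti, and 7 were higher and 1 lower in Anti than in Ctrl. The counts against Ctrl are near the shares of all well-counted genes (26.8% and 30.8%), while those shares were 30.5% and 33.7% against Anti and 21% and 22.7% in Anti against Ctrl. FAS, a death receptor, was lower in CRLM1-OE by both comparisons (-0.54, adjusted p = 4.3e-06, and -1.16, adjusted p = 3.8e-31). The median log2 fold change of these 10 genes was -0.06 against Ctrl and -0.28 against Anti, where that of all genes was 0.02 and -0.02. Scaled by total counts, 4 were higher and 3 lower than in Ctrl (median 0.08), and 6 were lower than in Anti.

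Of 15 regulators of the family's proteins or promoters, 5 were higher and 5 lower than in Ctrl, and 5 were higher and 6 lower than in Anti. Total counts turned the first split to 8 higher and 2 lower. FBXW7, the subunit of a ubiquitin ligase that marks MCL1 protein for degradation, was higher (log2 fold change 0.80, adjusted p = 3.3e-28, against Ctrl and 0.44, adjusted p = 1.3e-10, against Anti). E2F1, a transcription factor of the cell cycle, was lower (-0.90, adjusted p = 4.8e-26, and -1.25, adjusted p = 2.5e-58). The lists were chosen with earlier results of these data known.

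**Figure D4:**
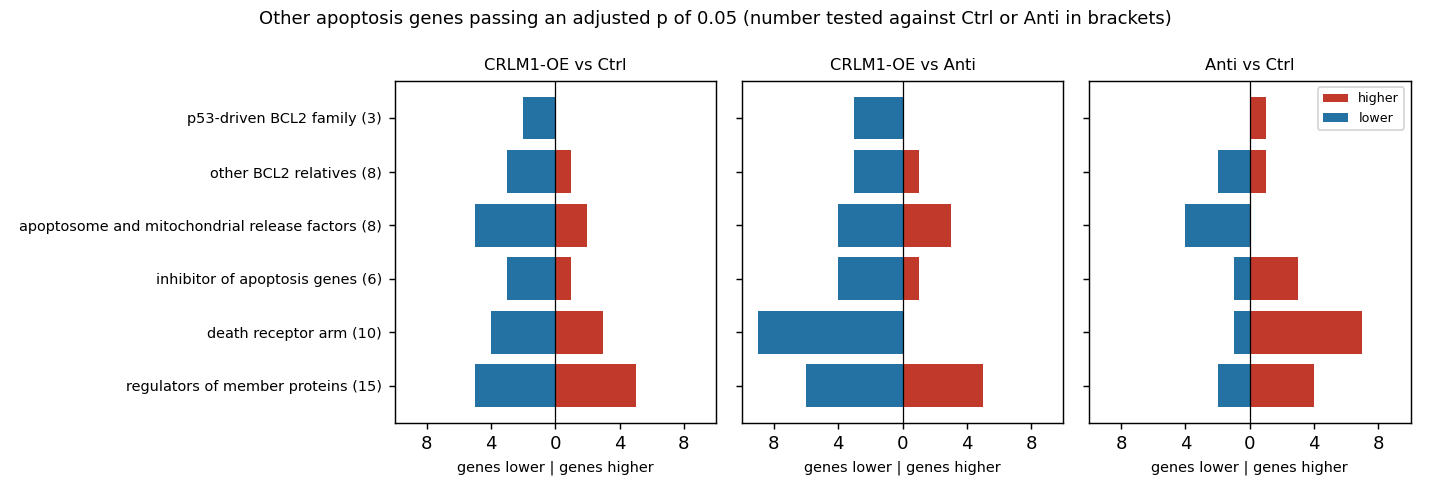
Number of genes in each of 6 other apoptosis lists that were higher (right) or lower (left) at an adjusted p of at most 0.05 in the 3 comparisons, with the list size in brackets. In the death receptor arm, 9 of 10 genes were lower in CRLM1-OE than in Anti (6 when scaled by total counts) and 7 of 10 were higher in Anti than in Ctrl.

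The genes whose log2 CPM followed BIK most closely over the 9 samples, among 11701 genes averaging 100 counts or more, were GDA (Pearson r = 0.9992), HNRNPD (0.9973) and PSPC1 (0.997). For HRK they were FAM122B (0.9625), C19orf44 (0.9504) and CPT2 (0.9453). The 9 samples fall into 3 groups of 3, so r mainly reflects how alike the group means are spaced. These values are descriptions with no test.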

How the data were processed

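RNA of 9 HCT116 samples in 3 groups, assigned from the labels, was sequenced by the authors. The authors trimmed reads with the FASTX-Toolkit, dropped very short ones, aligned the rest by TopHat2 to GRCh38 with Gencode annotation and deposited raw counts of uniquely mapped reads per gene. The authors also deposited FPKM values, scaled for exon length and mapped fragments. Both tables are named for expressed genes, whose criterion is not given in the sources used here, and COL1A2 has no FPKM here. The counts carry no molecular identifiers, so depth covers counting error only.

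Counts of 6 samples per comparison were fitted without covariates by the quasi-likelihood test of edgeR 4.0.16 with TMM factors (R 4.3.3). Genes with a summed count of 1 or more entered, and p values were adjusted over them by Benjamini-Hochberg. The threshold was an adjusted p of 0.05, and a fold change of 2 was added for DEGs. The smallest adjusted p written is 1e-300. The alternatives were RLE factors, total counts, filterByExpr, DESeq2 1.42.0, limma 3.58.1 on log2(FPKM + 0.1) and log2(FPKM + 1), all 9 samples in 1 fit, the replicate number as a block and each replicate left out. These tests were checked on simulated counts in which known changes had been set. In the simulation all genes had the same spread beyond counting error and few genes changed. It therefore cannot show how the scaling acts in these data.

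All 10 family genes are named. Of the other lists, at most 4 genes per list are named. These had an adjusted p of at most 0.05 and a fold change of at least 1.5 in CRLM1-OE against either control. In addition, BBC3, PMAIP1, BAX and BCL2L2 were named after their values were seen. Likeness was computed for the 2 members with the largest fold change among those with a mean count of at least 100, with 3 genes each. The members and lists were chosen with earlier results of these data known. Positions and shared exons came from GENCODE on GRCh38, in a later release than the authors used, and figures were drawn with matplotlib 3.10.9. Some genes of the lists are not reported here.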

Additional observations from a re-analysis of the deposited data

How the results depend on the processing

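For each of the 10 genes and 3 comparisons, 14 alternatives were run. Of these 420 values, 377 kept their direction and their side of the threshold. Without a change of sign, 9 passed it newly and 13 no longer passed. The other 21 changed sign. None of the 21 had passed in the reported fit. BID in Anti against Ctrl, counted among the 21, passed newly with total counts (adjusted p = 0.026). For BID in Anti against Ctrl, the sign changed with RLE factors (0.000406), total counts (0.104), filterByExpr (0.00259), DESeq2 (0.000524), limma on log2(FPKM + 0.1) (0.092) and log2(FPKM + 1) (0.0876), all 9 samples (0.00635) and the replicate block (0.000274). For BAK1 it changed with total counts (0.0574) and limma (0.0431 and 0.0399). For BMF it changed with the replicate block (-0.00408). With each replicate left out, the values ranged from -0.0195 to 0.0768 for BCL2L11 in CRLM1-OE against Ctrl and, in Anti against Ctrl, from -0.0203 to 0.024 for BID, from -0.067 to 0.0067 for BAK1 and from -0.254 to 0.141 for BMF. Total counts moved the median of all well-counted genes by more than 0.1 on the log2 scale, from -0.0138 to 0.127 in CRLM1-OE against Ctrl and from 0.00553 to 0.11 in Anti against Ctrl. Named genes of the other lists (BOK, APAF1, BIRC3, FAS, FBXW7 and E2F1) kept their calls against both controls in all 14 alternatives. Their adjusted p values depended much on the fit. For BIRC3 they were 9.4e-21 against Ctrl and 7.9e-28 against Anti with filterByExpr. In limma on log2(FPKM + 0.1) they were 2.8e-05 and 3.3e-06. Adjusted p values of the family genes varied in the same way. For BCL2L1 in CRLM1-OE against Anti, the value was 1.8e-62 in the reported fit and up to 4.7e-05 in the alternatives. For MCL1 in Anti against Ctrl, it was 8.7e-56 and up to 0.00034. The number of family genes called stayed within 1.5 times the reported number in all alternatives. The replicate block left the calls of CRLM1-OE against Ctrl at 5 higher and 4 lower, and in Anti against Ctrl HRK passed with it (adjusted p = 0.047). Samples of the same number correlated at -0.0333 to 0.0783 in their deviations from the group means, and other pairs at -0.0457 to 0.0751. Between CRLM1-OE and Ctrl, pairs of the same number had 0.0298, 0.0215 and 0.0783, and other pairs at most 0.0166. Pairs with Anti showed no such order. Values this small cannot decide whether the numbers mark a shared batch. The causes were not tested. BCL2 and BMF had under 100 counts per sample, which limits their precision, and the labels do not say whether replicates came from separate transductions, so p values measure the spread between these samples, which may be technical.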
